A study of Bos taurus with 6 samples.

Results

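YAP1 and WWTR1 (the gene of TAZ), the 4 TEAD genes, and the target genes CCN1, CCN2, LATS2 and AMOTL2 were examined in bovine embryonic stem cells (bESCs) grown on living and on fixed feeder cells. These 10 genes, out of 19163 in the count table, were chosen as Hippo effectors, TEAD factors and YAP targets, and each was found by its symbol and its Entrez identifier. F7 is 1 line of bESCs, derived from in vitro fertilized Holstein Friesian embryos. MC-F7 was F7 grown on mouse embryonic fibroblasts (MEFs) whose division had been stopped with mitomycin C, so the feeder cells were alive, and MT-F7 was F7 grown on MEFs killed and fixed with methanol. Sequencing was done on 3 libraries of each kind, and the labels give 15 passages for all of them. The same medium, with FGF and the Wnt pathway inhibitor IWR1, was used in both groups and was refreshed every day for MC-F7 and every other day for MT-F7. A ROCK inhibitor was in the fresh medium at passage. For RNA, the dissociated cells stood for 25 min on a gelatin-coated dish and those still floating were taken. The MEFs are mouse cells, and the reads were aligned to the Bos taurus genome.

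YAP and TAZ are coactivators without a DNA-binding domain of their own. They enter the nucleus and bind TEAD factors, which hold them on the DNA of target genes, and the kinases LATS1 and LATS2 phosphorylate them and keep them in the cytoplasm. This Hippo pathway responds to cell contact, cell polarity, attachment to a matrix and tension of the actin cytoskeleton, with ROCK as a part of the latter. In early embryos the pathway separates the outer trophectoderm, in which YAP and TEAD4 act on trophectoderm genes, from the inner cell mass. CCN1 and CCN2 (formerly CYR61 and CTGF) encode secreted matricellular proteins and are the most used readouts of YAP and TAZ, while LATS2 and AMOTL2 encode inhibitors that the pathway induces as feedback. Activity of YAP and TAZ is set mainly by phosphorylation and location of the proteins, which RNA levels do not measure.

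The libraries held 21958386 to 24933430 counts on genes, and 13001 genes had enough counts to be tested. Levels are given as CPM, the counts per 1000000 counts after TMM normalization, with mean ± SD of 3 libraries. A log2 fold change (MT-F7 over MC-F7) has its standard error from edgeR's quasi-likelihood test, and a gene was called at an adjusted p (Benjamini-Hochberg, over all 13001 genes) under 0.05. By this rule 23.2% of all tested genes were called, 11.9% higher and 11.3% lower in MT-F7. The statistics section of the paper speaks of technical replicates, without naming the sequencing libraries. The sources do not otherwise say if the replicates were independent cultures. The p values thus measure the spread between these libraries only, which may be technical. The mitochondrial share of counts was 21.5% ± 6.16 for MC-F7 and 23.0% ± 4.97 for MT-F7, and replicate 3 had the highest share of each group. Markers of pluripotent cells were present in every library, POU5F1 at 486 to 1456 CPM and NANOG at 9.47 to 51.7 CPM over both groups. Of 6 such markers listed, 5 were found by symbol and tested. Of these 5, 4 (POU5F1, NANOG, LIN28A and DPPA4) fell in MT-F7, and 1 was not called. The median log2 fold change of the 5 was -1.19, with a range from -3.22 to 0.33.

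All 10 genes were tested, and 3 of them (30%) rose in MT-F7: WWTR1, CCN2 and TEAD2. None of the 10 fell at this threshold. MT-F7 was above MC-F7 without overlap in 4 genes, YAP1 and the 3 called ones, as in 19.9% of all tested genes. It was below without overlap in 2 genes, CCN1 and TEAD1, as in 20.1% of all tested genes. Together these are 6 of 10 genes, beside 40.0% of all tested genes. The median log2 fold change of the 10 genes was 0.23, beside -0.0026 over all tested genes. The share called was thus near that of all genes.

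**Figure D1:**
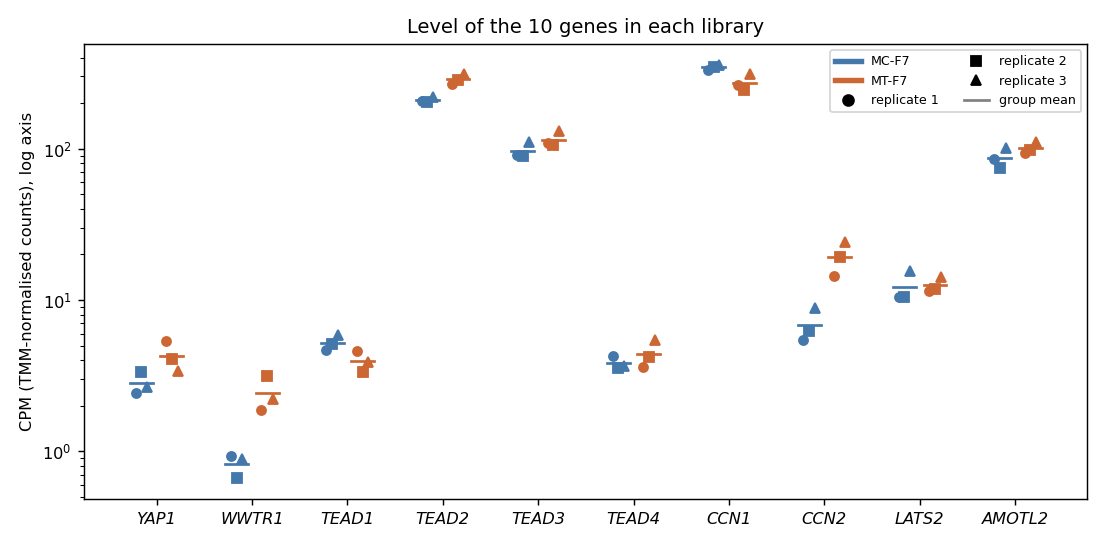
Levels of the 10 genes in the 6 libraries, as CPM on a log axis (MC-F7 in blue, MT-F7 in orange, marker shape for the replicate number, horizontal line for the group mean). The CCN2 and WWTR1 points of MT-F7 stand clear of those of MC-F7, while CCN1 and TEAD2 are the highest genes in both groups.

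Among the coactivators, WWTR1 rose. WWTR1 (Entrez gene 614786) had 0.929, 0.663 and 0.889 CPM in the MC-F7 libraries and 1.87, 3.17 and 2.21 CPM in the MT-F7 libraries. The groups did not overlap, and replicate 2 was the lowest of MC-F7 and the highest of MT-F7. The mean rose 2.92-fold, from 0.827 ± 0.143 to 2.42 ± 0.672 CPM (95% interval of the fold 1.69 to 5.04), which is 1.55 ± 0.364 on the log2 scale (± standard error, adjusted p = 0.0081). These levels rest on few reads, 16 to 21 counts per MC-F7 library and 47 to 82 per MT-F7 library. Over 18 fits the log2 fold change ran from 0.25, on log2(TPM + 1), and 1.04, on log2(TPM + 0.1), to 1.69. Without MT-F7 replicate 2, WWTR1 was no longer called (log2 fold change 1.30, adjusted p = 0.054). WWTR1 is also one of the genes that the study listed from these libraries as higher in MT-F7, and so is CCN2, so their direction is not independent evidence.

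YAP1 (100336629) did not reach the threshold. Its levels were 2.43, 3.36 and 2.67 CPM in MC-F7 and 5.34, 4.09 and 3.40 CPM in MT-F7. The groups were separate only by the narrow gap between MC-F7 replicate 2 and MT-F7 replicate 3. The log2 fold change was 0.60 (standard error 0.270, adjusted p = 0.13), and the interval of the fold, 1.01 to 2.27, holds both a change near nothing and a doubling. No alternative tried called YAP1, with adjusted p values from 0.061 to 0.43.

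The ratio of WWTR1 to YAP1 was compared within each library, on the deposited values that the authors call TPM, which are per gene length. A ratio of this kind needs no library size. Its log2 was -1.73, -2.68 and -1.93 in the libraries of MC-F7, and -1.85, -0.71 and -0.96 for MT-F7, and MT-F7 replicate 1 thus lay among the MC-F7 libraries. On average the YAP1 value was 4.33 times that of WWTR1 in MC-F7 and 2.26 times in MT-F7, but the difference of 0.94 on the log2 scale was not beyond the spread (exact permutation test, two-sided p = 0.20, adjusted over 8 pairs of paralogues p = 0.27). With 0.1 added to both values the difference was 0.43 (exact permutation p = 0.30). The smallest two-sided p that this exact test allows with groups of 3 is 0.1. A different change of the coactivators was therefore not shown.

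TEAD2 was the most abundant of the TEAD genes, which encode the DNA-binding partners, and the only one called. It had 208, 203 and 221 CPM in MC-F7 and 269, 283 and 311 CPM in MT-F7, with no overlap. From 210.3 ± 9.36 to 287.7 ± 21.2 CPM the rise was 1.37-fold, or 0.45 ± 0.144 on the log2 scale (adjusted p = 0.037). This call was close to the threshold. Of 6 fits with 1 library fewer it passed in 1, that without MC-F7 replicate 3 (adjusted p = 0.040), and the adjusted p was 0.077 without MC-F7 replicate 1, 0.17 without MC-F7 replicate 2, 0.084, 0.097 and 0.067 without MT-F7 replicates 1, 2 and 3. The log2 fold change itself stayed between 0.39 and 0.49. CD37, which overlaps TEAD2 in the RefSeq annotation, had 10.3 to 13.4 CPM in MC-F7 and 15.7 to 19.1 CPM in MT-F7, well below TEAD2. Whether the counting used strand is not stated, so reads of such overlapping genes cannot be told apart here.

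The other TEAD genes did not pass the test. TEAD3 had 90.8, 90.0 and 110 CPM in MC-F7 and 109, 105 and 130 CPM in MT-F7, with MC-F7 replicate 3 inside the range of MT-F7 (log2 fold change 0.24, 95% interval -0.09 to 0.58). TEAD1 had 4.64, 5.10 and 5.89 CPM in MC-F7 and 4.62, 3.36 and 3.91 CPM in MT-F7, where the groups just failed to overlap (log2 fold change -0.39, 95% interval -0.90 to 0.11). TEAD4, the TEAD factor best known from the trophectoderm, had 4.25, 3.57 and 3.65 CPM in MC-F7 and 3.59, 4.17 and 5.48 CPM in MT-F7 (log2 fold change 0.21, 95% interval -0.33 to 0.74). For TEAD1 and TEAD4, with 78 to 129 counts per library, the interval of the fold reached down to 0.536 and up to 1.67, respectively.

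Within the family, TEAD2 and TEAD3 together held nearly all of the summed per-length TEAD value. The share of TEAD2 was 73.2%, 73.0% and 70.9% in the MC-F7 libraries and 75.2%, 76.7% and 74.4% in the MT-F7 libraries. TEAD3 held 25.0% ± 1.40 in MC-F7 and 22.5% ± 1.01 in MT-F7. TEAD4 held 1.63% ± 0.205 and 1.42% ± 0.194, and TEAD1 1.06% ± 0.0800 and 0.621% ± 0.126. In TEAD1, TEAD2 and TEAD3 the shares of the groups did not overlap, with the smallest p the exact permutation test allows (0.1, two-sided), and in TEAD4 they did (p = 0.30). The largest of these shifts, 3.08 percentage points for TEAD2, left the order of the 4 genes by mean share as it was. The ratio of TEAD2 to TEAD1 was 68.2 in MC-F7 and 122.98 in MT-F7 with no overlap (difference 0.85 on the log2 scale, exact permutation p = 0.1, adjusted over 8 pairs p = 0.20).

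**Figure D2:**
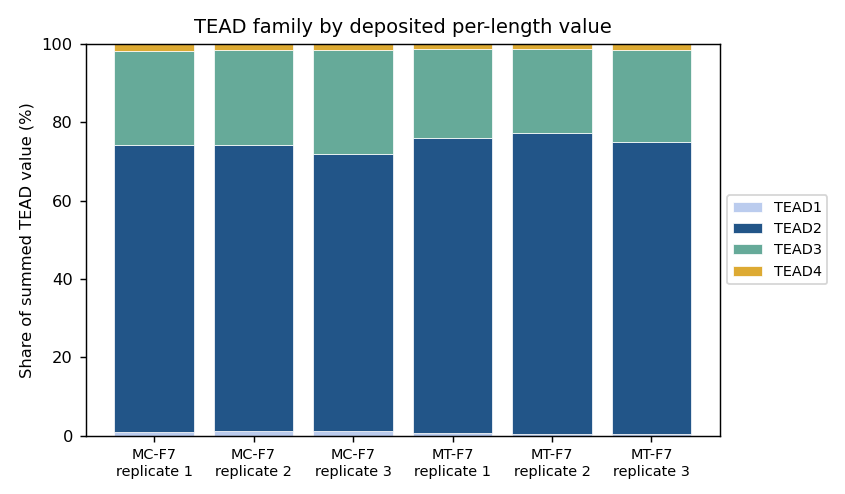
Share of each TEAD gene in the summed deposited per-length value of TEAD1 to TEAD4, in percent, 1 bar per library. TEAD2 takes 70.9% to 76.7% in every library, and TEAD1 and TEAD4 appear as thin bands at the bottom and the top.

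The matricellular targets CCN1 and CCN2 lay on different sides. CCN2 (281103) had 5.40, 6.26 and 8.84 CPM in the MC-F7 libraries and 14.4, 19.2 and 24.0 CPM in the MT-F7 libraries. No library of one group reached the range of the other. The mean rose 2.81-fold, from 6.83 ± 1.79 to 19.2 ± 4.81 CPM (95% interval of the fold 1.97 to 4.02), which is 1.49 ± 0.237 on the log2 scale (adjusted p = 6.6e-04). CCN2 was called in each of the 18 fits made, with log2 fold changes from 0.78, on log2(TPM + 1), to 1.71.

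CCN1 (508941) was far more abundant, and its values were lower in MT-F7. It had 329, 345 and 359 CPM in MC-F7 and 265, 244 and 310 CPM in MT-F7, again without overlap. From 344.6 ± 14.9 to 273 ± 33.7 CPM the change was -0.34 ± 0.152 on the log2 scale (adjusted p = 0.13), so CCN1 was not called. Without MT-F7 replicate 3, the highest of its group, it was (log2 fold change -0.45, adjusted p = 0.046). The 95% interval of the log2 fold change, -0.67 to -0.01, does not reach the change of CCN2.

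The ratio of CCN2 to CCN1 within libraries separated the groups. Its log2 was -6.10, -5.95 and -5.51 in the libraries of MC-F7, and -4.36, -3.83 and -3.85 for MT-F7. Per length, CCN1 stood at 57.7 times CCN2 in MC-F7 and at 16.2 times in MT-F7, and the ratio thus shifted 3.57-fold (difference 1.84 on the log2 scale, exact permutation p = 0.1, the smallest possible, adjusted over 8 pairs p = 0.20). This was the largest shift among the 8 pairs of paralogues. CCN1 was above CCN2 in every library.

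The feedback genes LATS2 and AMOTL2 did not pass the test. LATS2, which encodes the kinase that phosphorylates YAP and TAZ, had 10.4, 10.4 and 15.5 CPM in MC-F7 and 11.5, 11.8 and 14.1 CPM in MT-F7. The MT-F7 libraries lay inside the range of MC-F7, and the log2 fold change of 0.04 had a 95% interval from -0.39 to 0.48. AMOTL2, which encodes an angiomotin that binds YAP at cell junctions, had 84.8, 74.9 and 101 CPM in MC-F7 and 93.9, 97.6 and 111 CPM in MT-F7, where the groups overlapped through MC-F7 replicate 3 (log2 fold change 0.22, 95% interval -0.12 to 0.55). A rise as large as that of CCN2 lies outside both intervals.

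**Figure D3:**
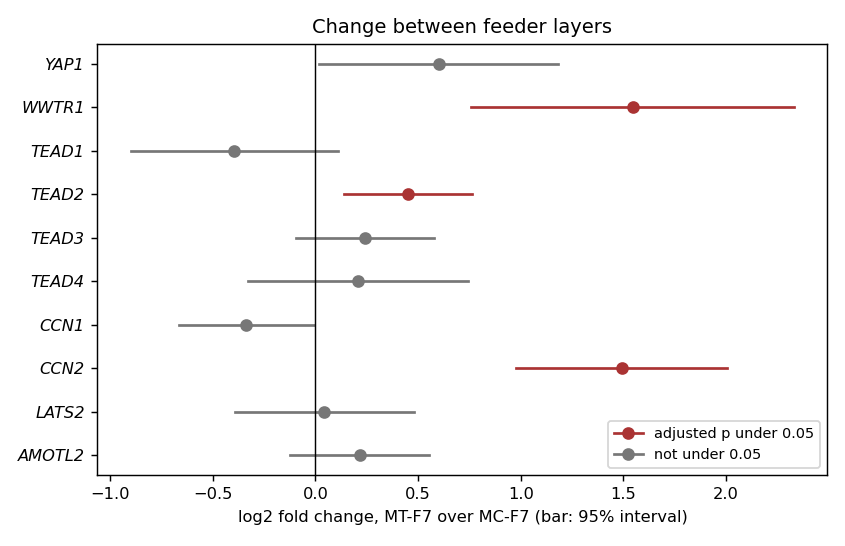
Log2 fold change of each of the 10 genes, MT-F7 over MC-F7, with its 95% interval from edgeR's quasi-likelihood test (red where the adjusted p is under 0.05). WWTR1 and CCN2 lie near 1.5, TEAD2 at 0.45, and CCN1 and TEAD1 below 0.

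Levels were compared between genes on the deposited TPM, the only per-length values. The columns of this table add up to 155595 to 165666 and not to 1000000, so they serve for the order of genes and not as shares of all transcripts. In MC-F7 the order was CCN1 (30.6 ± 1.78), TEAD2 (18.5 ± 0.402), TEAD3 (6.40 ± 0.452), AMOTL2 (3.09 ± 0.277), LATS2 (0.813 ± 0.154), CCN2 (0.537 ± 0.117), TEAD4 (0.418 ± 0.0435), YAP1 (0.414 ± 0.0932), TEAD1 (0.273 ± 0.0262) and WWTR1 (0.0948 ± 0.0128). CCN2 and TEAD4, and TEAD4 and YAP1, overlapped as neighbours and could not be ordered. In MT-F7, TEAD2 (27.7 ± 1.27) and CCN1 (26.4 ± 1.95) overlapped at the top, CCN2 (1.66 ± 0.362) stood above LATS2 (0.922 ± 0.0649), and WWTR1 (0.307 ± 0.0962) was no longer apart from TEAD1 (0.227 ± 0.0358). LATS2 and YAP1, and YAP1 and TEAD4, overlapped as well.

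Both coactivators were low against TEAD2 and TEAD3, in that the per-length values of WWTR1 and YAP1 were below theirs in every library. This did not hold for all TEAD genes. YAP1 overlapped TEAD4 in both groups and had a higher mean than TEAD1 (0.414 and 0.273 in MC-F7, 0.687 and 0.227 in MT-F7). This order depends on the gene models used by the authors. The count behind 1 unit of TPM, which would follow gene length, was lowest for YAP1 among the 10 genes, at 0.606 of the value for CCN1, and highest for AMOTL2, at 2.48 times that value. A gene model that leaves out part of a transcript loses both its length and its reads.

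Libraries with the number 3 were often the highest of their group in these genes. In MC-F7 replicate 3 was the highest in 7 of 10 genes, where it was so in 38.0% of all tested genes, and in MT-F7 also in 7 of 10, beside 41.8% of all tested genes. In 6 of the 10 replicate 3 was highest in both groups, beside 24.7% of all tested genes. This count was made after the values had been seen. The same libraries had the highest mitochondrial share, and the part of that in these levels was not tested. With both of them left out, 4 of the 10 genes were called, WWTR1, CCN2 and TEAD2 higher and CCN1 lower (adjusted p = 0.021). In that fit 4242 of all 13073 tested genes were called, more than in the main fit.

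Among the kinases upstream of YAP and TAZ, STK3 and TAOK3 passed the test. Of 12 genes of the kinase core and its partners, 2 rose and none fell, 16.7% beside 23.2% of all tested genes, with a median log2 fold change of 0.086. STK3 (MST2), the kinase that activates LATS1 and LATS2, rose from 8.13 ± 1.86 to 13.5 ± 2.46 CPM (log2 fold change 0.73, standard error 0.220, adjusted p = 0.030). TAOK3, which can activate the MST kinases, rose from 3.40 ± 0.269 to 6.16 ± 0.240 CPM (log2 fold change 0.86, standard error 0.217, adjusted p = 0.012). STK4 (MST1), LATS1, MOB1B and STK38 had lower values in every MT-F7 library, without passing the test, at -0.68, -0.70, -0.36 and -0.46 on the log2 scale (adjusted p = 0.058, 0.077, 0.10 and 0.082). Of the 12 genes, 4 were thus below without overlap, beside 20.1% of all tested genes, and 2 were above, beside 19.9%. STK3 and its paralogue STK4 therefore had values on opposite sides, a difference that was not tested. The count of 2 fell to 0 without MC-F7 replicate 2 and to 1 without MC-F7 replicate 3, MT-F7 replicate 1 or MT-F7 replicate 2, and it was 4 by the likelihood ratio test.

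The scaffolds and polarity proteins at the head of the pathway changed more often. Of 20 genes, 7 rose and 3 fell, 50% beside 23.2% of all tested genes, and the median log2 fold change was 0.23. The FAT cadherin arm rose, with FAT1 from 164 ± 19.1 to 329 ± 19.97 CPM (log2 fold change 1.00, standard error 0.152, adjusted p = 4.6e-04), FAT4 at 1.28 and its ligand DCHS1 at 0.79. FRMD6, a FERM domain protein that activates the pathway, rose from 6.52 ± 1.67 to 14.7 ± 2.27 CPM, and TJP1 (ZO-1) of the tight junction by 0.55 on the log2 scale. The Crumbs genes, whose products mark the apical membrane, moved apart. CRB1 and CRB2 rose from low levels (log2 fold changes 1.83 and 1.54), and CRB3, the form of most epithelia, fell from 3.54 ± 1.34 to 1.19 ± 0.248 CPM (log2 fold change -1.57, adjusted p = 0.0058). PATJ, which belongs to the same apical complex, fell from 5.91 ± 0.603 to 2.05 ± 0.168 CPM. WWC1 (KIBRA), a scaffold that activates LATS1 and LATS2, had 22.6, 21.8 and 19.0 CPM in MC-F7 and 6.61, 5.99 and 3.01 CPM in MT-F7 (log2 fold change -2.02, standard error 0.253, adjusted p = 1.2e-04). FRMD6, CRB1 and CRB2 are genes that the study listed from these libraries, so their direction is not independent evidence.

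Partners and inhibitors of YAP, TAZ and TEAD were counted next. Of 14 genes analysed, 12 had enough counts to be tested, of which 1 rose and 1 fell, 16.7% beside 23.2% of all tested genes, with a median log2 fold change of 0.13. AMOT, the founding angiomotin, rose from 7.86 ± 2.46 to 16.1 ± 2.996 CPM (log2 fold change 1.04, standard error 0.241, adjusted p = 0.0076), and it too is on the list of the study. CSNK1D, a casein kinase with a part in the degradation of YAP, fell from 111 ± 6.35 to 79.9 ± 4.02 CPM (log2 fold change -0.47, adjusted p = 0.027). This call was lost when MC-F7 replicate 1, MC-F7 replicate 2, MT-F7 replicate 1 or MT-F7 replicate 2 was left out. The count of the list was then 1, a gene that rose. The TEAD cofactors VGLL3 and VGLL4 were at 0.88 and 0.30 on the log2 scale (adjusted p = 0.11 and 0.37), and VGLL2, at 0.116 to 0.467 CPM, was too low to be tested.

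Further genes used as YAP and TAZ targets in other cells were often higher in MT-F7. Of 18 such genes, 16 were tested, 7 rose and 1 fell, 50% beside 23.2% of all tested genes, and the median log2 fold change was 0.56. ANKRD1, which encodes a repeat protein of muscle and a much used target, had 4.78, 4.35 and 4.86 CPM in MC-F7 and 9.12, 13.1 and 11.2 CPM in MT-F7. Its groups were well separated, with a rise of 1.26 ± 0.206 on the log2 scale (adjusted p = 8.3e-04). TGFB2, a ligand of the TGF beta family, rose from 0.702 ± 0.140 to 6.53 ± 0.672 CPM (log2 fold change 3.20), and the study lists it too. NT5E, the ectoenzyme CD73, rose from 1.24 ± 0.187 to 5.37 ± 1.24 CPM (log2 fold change 2.11). MYOF, CCDC80, FJX1 and AXL rose with log2 fold changes of 1.70, 1.58, 1.21 and 0.70. IGFBP3, a binding protein of insulin-like growth factors and the most abundant gene of this list, fell from 1586 ± 111 to 742 ± 69.3 CPM (log2 fold change -1.10, adjusted p = 4.0e-04). The study named IGFBP3 from these libraries as well, so its direction is not independent evidence. F3, CRIM1, GADD45A and DOCK5 had log2 fold changes from -0.26 to 0.10 and did not pass the test. ASAP1, NUAK2, PTPN14 and ARHGEF17, at 0.39, 0.48, 0.50 and 0.62, did not pass either (adjusted p = 0.11, 0.074, 0.20 and 0.061). PTPN14 was also counted among the partners and inhibitors.

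**Figure D4:**
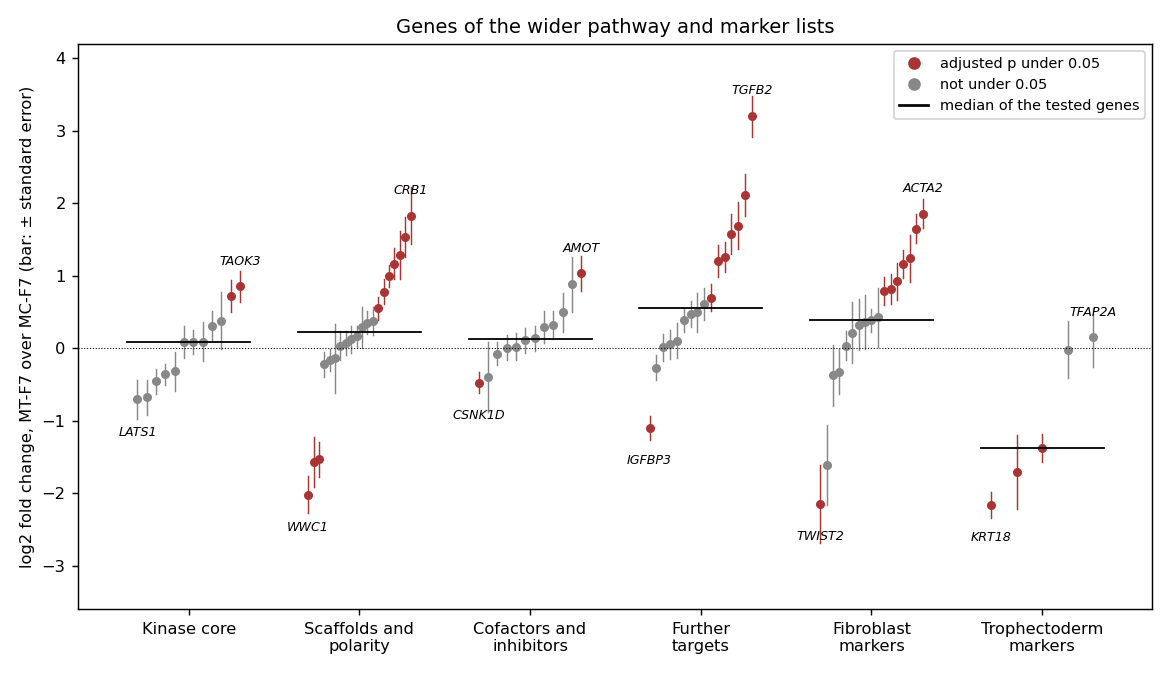
Log2 fold change of every tested gene of the wider lists, MT-F7 over MC-F7, with its standard error (red where the adjusted p is under 0.05, black line for the median of the list, lowest and highest gene named). The further targets have the highest median, 0.56, and the scaffold and polarity genes spread from WWC1 at -2.02 to CRB1 at 1.83.

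Markers of fibroblasts, the cell type of the feeders, were more often higher than lower in MT-F7, like the further targets. Of 18 markers, 17 were tested, 7 rose and 1 fell, 47.1% beside 23.2% of all tested genes, and the median log2 fold change was 0.39. With an absolute log2 fold change over 1 also required, 5 were called, beside 1489 of all 13001 tested genes. The summed level was 516 to 677 CPM in the MC-F7 libraries and 1051 to 1233 CPM in the MT-F7 libraries. ACTA2 and COL3A1 rose most (log2 fold changes 1.86 and 1.65), followed by POSTN, FBN1 and PDGFRB (1.24, 1.17 and 0.93). ACTA2 and TAGLN, cytoskeletal genes of contractile cells, and the collagen gene COL1A1 made up most of the sum. TWIST2 fell from 1.81 ± 0.312 to 0.406 ± 0.291 CPM, and DPT had at most 1 count in any library. The markers PDGFRA and PRRX1 were at 0.159 to 1.53 CPM in all libraries. PRRX1 was lower in MT-F7 without passing the test (log2 fold change -1.61, adjusted p = 0.054). COL1A1, COL1A2, COL6A3, DCN, LUM, THY1, PDGFRA and S100A4 were not called either. Their log2 fold changes ran from -0.37 (COL6A3) to 0.43 (S100A4). More cells of a type and more RNA per cell cannot be told apart in such bulk samples. The paper reports that a smaller share of reads aligned to the cow genome in MC-F7 than in MT-F7. It proposes that fixed feeders reduced contamination by feeder cells. How far reads from mouse feeder cells were counted on bovine genes in either group was not tested. The part of these markers in CCN2, WWTR1 and the further targets was not tested either.

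Among trophectoderm markers the keratins and GATA2 fell, and CDX2 and HAND1 had no counts. Of 11 markers, 5 were tested, and 3 of these fell (60% of those tested), beside 11.3% of all tested genes. CDX2 and HAND1 had 0 counts in all 6 libraries. By counting error alone this allows up to 0.120 to 0.137 CPM in a library, taken here before TMM normalization. GATA3 was at or below 0.310 CPM. KRT8 and KRT18, keratins of simple epithelia that are also found outside the trophectoderm, fell from 1431 ± 339.6 to 554 ± 48.2 CPM and from 859 ± 167 to 193 ± 12.5 CPM (log2 fold changes -1.37 and -2.15). GATA2 fell as well, from 1.11 ± 0.324 to 0.341 ± 0.183 CPM (log2 fold change -1.70, adjusted p = 0.029). TFAP2C and TFAP2A, transcription factors of the trophectoderm, were at 0.807 to 1.51 CPM and 0.655 to 1.12 CPM and did not pass the test (log2 fold changes -0.02 and 0.15). The summed level of the list was 1829 to 2834 CPM in MC-F7 and 680.2 to 793 CPM in MT-F7, nearly all of it keratin.

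For each called gene, the tested genes with the most similar levels over the 6 libraries were named by the distance between log2 CPM values after each gene's mean was taken away. Nearest to WWTR1 were KALRN, ATP8A2 and ANKRD1, at root mean square distances of 0.124, 0.161 and 0.161. ANKRD1 is thus both a listed target and the third nearest of 13000 genes to WWTR1. Nearest to CCN2 were ADGRA2, LRRK1 and KLC1, at 0.0792, 0.106 and 0.117, and nearest to TEAD2 were ZNF768, ACBD4 and TTLL1, at 0.0270, 0.0389 and 0.0422. The member nearest to WWTR1 was CCN2, at rank 240 and a distance of 0.339, so many other genes followed WWTR1 more closely than CCN2 did. These distances are descriptions over 6 libraries in 2 groups.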

How the data were processed

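RNA-seq of 6 libraries (3 MC-F7, 3 MT-F7) was used. Filtered reads were aligned by the authors with HISAT2 2.0.5 to the cow genome of Ensembl and assigned to genes with featureCounts 1.5.0-p3, and raw counts of 19163 Entrez genes were deposited. The build, the strand setting and the treatment of reads that match several genes are not given in the sources used here. The authors also deposited values that they call TPM. Among 9682 genes that reached 50 counts in each library, 9681 had a ratio of count to TPM that was equal across libraries within 0.001 of its value, so library size remains in the deposited TPM.

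Symbols came from RefSeq (ARS-UCD2.0), which matched all but 89 identifiers. Low genes were removed with filterByExpr (minimum count 10, minimum total 15), and the rest were tested with edgeR 4.0.16 (R 4.3.3, TMM factors 0.971 to 1.04, quasi-likelihood test, no block). Standard errors were taken as the log2 fold change over the square root of F. Ratios and shares were tested by exact permutation in scipy 1.17.1. Libraries of a group differed beyond counting noise in every pair. Intervals and limits cover counting error or library spread only. Alternatives were RLE factors, library size only, DESeq2 1.42.0, the likelihood ratio test, other filters, a block for the replicate number, leaving out 1 library at a time, limma 3.58.1 on log2(TPM + 1) and log2(TPM + 0.1), no mitochondrial genes, 0.1 added to both values of a ratio, counts in place of TPM in the TEAD shares, and a fold change limit. Leaving out both libraries numbered 3 was added after the data were seen. The steps were tested on simulated data. The 10 genes were named in full. Of the other lists, called genes were named by size of change, up to 5 in each direction, and a few more genes were named after their values were seen. The genes and lists were chosen with earlier results of these data known. VGLL1 was not analysed here.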

Additional observations from a re-analysis of the deposited data

How the results depend on the processing

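The count of all genes called was 3016, 4674 with the replicate number as a block, 1489 with an absolute log2 fold change over 1, and 1914 to 3093 with 1 library left out, the lowest without MC-F7 replicate 2. Numbers did not pair the samples throughout. Libraries of the same number had correlations of 0.134, 0.0445 and 0.417 in their deviations, and only replicate 3 correlated best with its own number. MC-F7 replicate 3 had -0.232 and -0.306 with MT-F7 replicates 1 and 2. What the libraries numbered 3 had in common was not tested. With the block, 4 of the 10 genes were called, CCN1 (adjusted p = 0.044) being added, and 6 kinase core genes, 2 higher and 4 lower. Of the 10 genes, 1 to 3 were called with 1 library left out, and the 1 without MT-F7 replicate 2 was CCN2. LATS2, not called, had log2 fold changes from -0.06 to 0.25 in those fits and was below 0 in 3 of them (-0.052, -0.054 and -0.061). The kinase core count of 2 was 4 by the likelihood ratio test, 0 with the fold change limit and 0 to 3 with 1 library left out. The cofactor count of 2 was 1 by limma on either TPM scale, 1 with the fold change limit and 1 to 3 with 1 library left out. The fibroblast marker count of 8 was 5 with the fold change limit. The TEAD1 share fell by 0.674 percentage points on counts in place of TPM, beside 0.442. Of all calls 51.5% were higher in MT-F7, against 67.1% and 67.2% by limma on log2(TPM + 1) and log2(TPM + 0.1), where library size moved the median of all genes to 0.11 on the latter scale. At 16 to 21 counts in MC-F7, WWTR1 is the member whose value depth limits most.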
